A study of Arabidopsis thaliana with 7 samples.

Results

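The genes described here are the WRKY, MYB, NAC and homeobox transcription factors of Arabidopsis thaliana that could be measured by name in these roots. Members were the genes whose symbol in the probe annotation, with or without AT before it, starts with WRKY, MYB, NAC, ANAC or HB and then a digit, taken only from probe sets paired with 1 gene. The rule found 7 of the 13356 genes that the annotation pairs with a probe set of their own, each with 1 probe set. They were 6 WRKY genes (WRKY6, WRKY20, WRKY22, WRKY42, WRKY47 and WRKY53) and 1 NAC gene (NAC014). It found 0 MYB and 0 HB genes, so MYB and homeobox genes are not described, and the set holds WRKY genes and NAC014. RefSeq (TAIR10.1) lists 67 genes with a WRKY symbol of this form, 121 with MYB, 81 with NAC and 31 with HB. Family genes that the annotation does not pair with a probe set of their own were not analysed here. The annotation has no entry for 8794 of the 22810 probe sets, so such genes may still be on the array.

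Each of the 7 samples was a pool of roots from 20 plants, hybridised to a one-colour Affymetrix ATH1 array. All the plants had gone 2 days without nitrogen and, at 9 days, spent 1 h on plates that held dexamethasone or none. The ANR1-GR line, in the C24 ecotype, carries the MADS-box factor ANR1 fused to a rat glucocorticoid receptor domain and driven by the 35S promoter. This fusion stays outside the nucleus until a steroid is added, and the labels name a single line, ANGR4-12. The groups were the line with 1 µM dexamethasone (1 array, replicate 2), the line without it (2 arrays), the wild type with 1 µM dexamethasone (2 arrays) and the wild type without it (2 arrays). For the wild type the ecotype label reads only Control, so line and genetic background cannot be told apart. The promoter acts in most cell types, so the fusion is not limited to the cells that normally express ANR1. The labels describe 2 biological replicates, and the array names of replicate 1 and replicate 2 carry different prefixes.

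WRKY proteins are plant transcription factors with a conserved zinc-binding domain that recognises the W box, a short element in the promoters of defence, senescence and stress genes. Many WRKY genes are themselves switched on within minutes to hours of wounding, pathogen signals or nutrient shortage, and they regulate each other through W boxes in their own promoters. NAC proteins form another large plant family, named after NAM, ATAF and CUC, with roles in organ boundaries, senescence and stress. In roots, WRKY factors are best known from phosphate supply, where WRKY6 and WRKY42 repress the phosphate exporter gene PHO1.

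Signals are the deposited values, scaled so that the trimmed mean of each array is 100.01, and a signal of 50 is used below as the level for calling a gene expressed. A level depends on the probes of each probe set, so levels are compared between arrays for 1 gene and not between genes. Marker genes were read beside the tissue label, and too few could be measured to settle it. Of 19 root markers 3 had a probe set that the annotation pairs with 1 gene. PYK10, a beta-glucosidase abundant in roots, ran from 2672.6 to 3148.4 over the 7 arrays. The root hair expansin genes EXPA18 and EXPA7 ran from 177.4 to 313.1 and from 27.0 to 127.6. EXPA7 was below 50 in replicate 2 of the untreated line (27.0) and of the treated wild type (38.2). Of 12 leaf markers 1 had such a probe set, RCA, which encodes Rubisco activase, at 103.6 to 234.6. This leaf marker was thus above 50 on every array. Log2 signals correlated at 0.958 to 0.988 for pairs of arrays that share a replicate number and at 0.911 to 0.962 for pairs that do not. The actin 3'/5' ratio, which rises as RNA degrades, was 0.388 on the treated line array, 1.59 on the untreated line array of replicate 2 and 0.259 on that of replicate 1. It was 0.876 and 0.251 on the treated wild type arrays of replicates 2 and 1, and 0.346 and 0.528 on the untreated ones. This is the ratio of 1 of the 2 actin probe set pairs on the array, picked after both had been seen, and the other pair put the same 2 arrays highest, at 5.30 and 3.53.

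At the level of 50, 4 of the 7 genes were called expressed in the starved roots. The level is the same for every probe set, so a gene below it may still be expressed. WRKY6, WRKY20, WRKY22 and WRKY47 had a signal of at least 50 on all 7 arrays, whereas WRKY42, WRKY53 and NAC014 were below 50 on all 7. Among all 22746 probe sets other than controls, 38% were at 50 or more on every array and 49.6% were below it on every array. Among the 13513 probe sets paired with 1 gene, from which the members come, these shares were 32.8% and 55.4%. No member lay above the level on only some arrays.

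**Figure D1:**
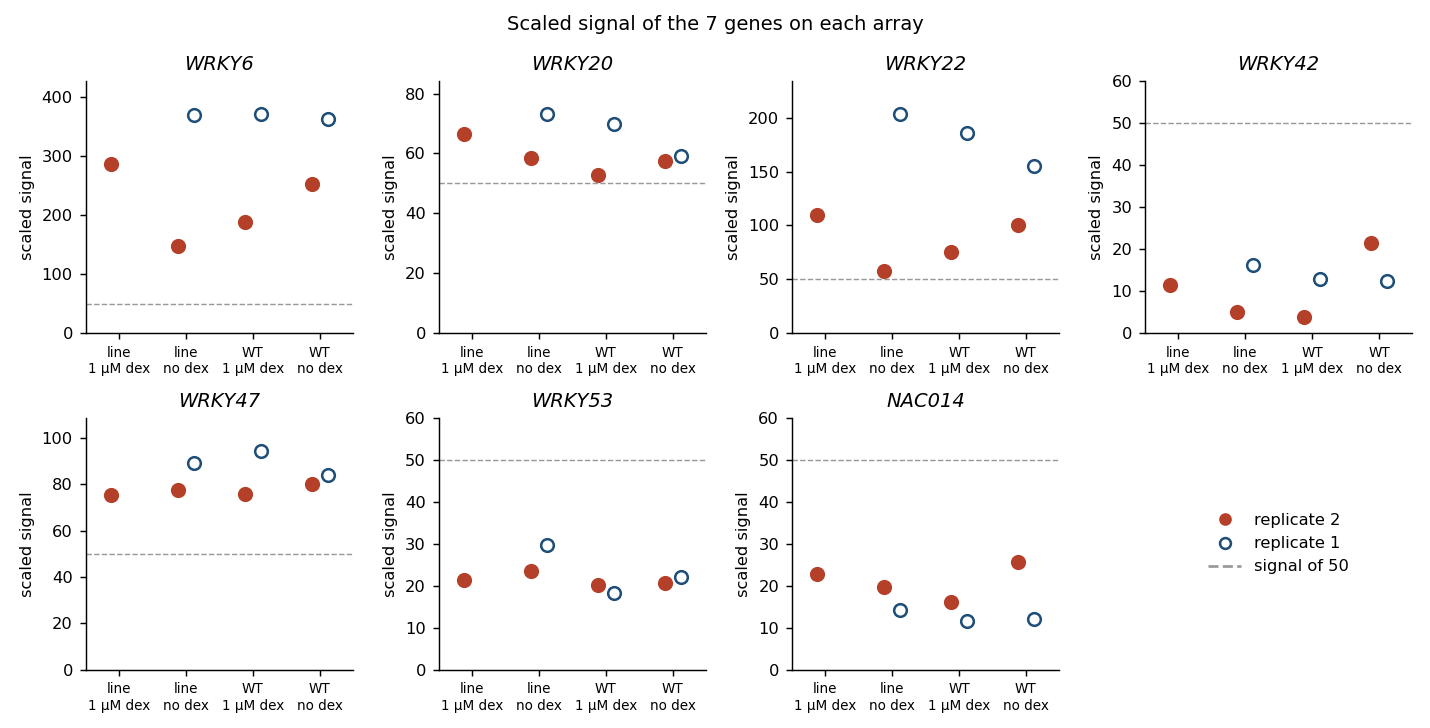
Scaled signal (linear y axis) of each of the 7 genes on each array, with the 4 groups along the x axis, filled points for replicate 2 and open points for replicate 1; the dashed line marks a signal of 50. WRKY6, WRKY20, WRKY22 and WRKY47 had higher open than filled points in every group with both, and WRKY42, WRKY53 and NAC014 stayed under the line.

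WRKY6 (AT1G62300) is a WRKY factor linked to senescence, defence and phosphate supply. Its signal was 285.6 for the line given dexamethasone, 147.2 and 369.6 for the untreated line (replicates 2 and 1), 188.9 and 371.2 in the treated wild type and 252.2 and 363.4 in the untreated wild type. The 3 replicate 1 arrays lay within a narrow band at the top, and the 4 replicate 2 arrays lay below them and apart from each other. The highest array was 2.52 times the lowest.

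WRKY22 (AT4G01250) acts downstream of the mitogen-activated protein kinase cascade that is triggered by bacterial flagellin, and also in dark-induced leaf senescence. Its signal was 109.8 for the line given dexamethasone, 58.0 and 203.7 for the untreated line (replicates 2 and 1), 75.6 and 185.9 in the treated wild type and 100.4 and 155.2 in the untreated wild type. The highest array was 3.51 times the lowest. As for WRKY6, every replicate 2 array was below every replicate 1 array, and the lowest array was again the untreated line of replicate 2, followed by the treated wild type of replicate 2.

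WRKY47 (AT4G01720) belongs to the same WRKY subgroup as WRKY6 and WRKY42. It had 75.4 for the line given dexamethasone, 77.7 and 89.1 for the untreated line (replicates 2 and 1), 75.8 and 94.6 in the treated wild type and 80.2 and 84.1 in the untreated wild type. The spread over all arrays was small, the highest being 1.25 times the lowest, and the replicates did not overlap for this gene either.

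WRKY20 (AT4G26640), of the group of WRKY proteins that carry a pair of WRKY domains, had 66.4 for the line given dexamethasone, 58.5 and 73.2 for the untreated line (replicates 2 and 1), 52.8 and 69.9 in the treated wild type and 57.5 and 59.2 in the untreated wild type. Here the treated line array of replicate 2 lay above the untreated wild type array of replicate 1, so the replicates overlapped. The highest array was 1.39 times the lowest.

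The 3 genes below the level were dim everywhere. WRKY53 (AT4G23810), a regulator of the onset of leaf senescence, ran from 18.2 in the treated wild type of replicate 1 to 29.8 in the untreated line of replicate 1. WRKY42 (AT4G04450), a regulator of phosphate transport, ran from 3.8 in the treated wild type of replicate 2 to 21.4 in the untreated wild type of replicate 2. NAC014 (AT1G33060), of the NAC factors with a membrane anchor, ran from 11.7 in the treated wild type of replicate 1 to 25.7 in the untreated wild type of replicate 2. None of the 3 passed the filter on mean signal, so they were not tested in the main fits, and their ratios between arrays rest on dim signals.

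Among the 4 tested genes, the only differences that passed the test in the main fits lay between the replicates. WRKY6 and WRKY22 were lower in replicate 2 than in replicate 1 in each of the 3 groups that hold both, and both passed the test. WRKY20 and WRKY47 were also lower in each of the 3 groups, by less, and neither passed. The comparison asked how far root samples labelled with different replicate numbers differed, with the group as a term in the model.

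The mean signal of WRKY6 was 218 ± 62.2 in replicate 2 (SD, n = 4) and 368 ± 4.12 in replicate 1 (SD, n = 3). On the scale log2(signal + 16), which understates the change of dim genes, the difference of replicate 2 minus replicate 1 was -0.89 ± 0.16 (SE), with a 95% confidence interval from -1.25 to -0.52 and a limma adjusted p of 0.0142. Within groups it was -1.24 in the untreated line, -0.92 in the treated wild type and -0.50 in the untreated wild type. The size varied between the groups, and that variation was not tested. The call was lost without the treated wild type of replicate 1 or of replicate 2 (-0.87 in each fit, limma adjusted p 0.0679 and 0.0689) and, for WRKY6 and WRKY22 alike, in the fit without the filter on low signals (limma adjusted p 0.0593 and 0.0650).

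The mean signal of WRKY22 was 86.0 ± 23.6 in replicate 2 (SD, n = 4) and 182 ± 24.5 in replicate 1 (SD, n = 3). Its log2 difference was -1.09 ± 0.19 (SE), with a 95% confidence interval from -1.53 to -0.65 and a limma adjusted p of 0.0131. It was -1.57 in the untreated line, -1.14 in the treated wild type and -0.56 in the untreated wild type, the same order as for WRKY6. By limma 2 of the 4 tested members passed, both lower, where 16.7% of the 10183 tested probe sets passed in either direction and 9.17% passed as lower. With 4 tested genes, that count is a description of these genes and of no family.

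**Figure D2:**
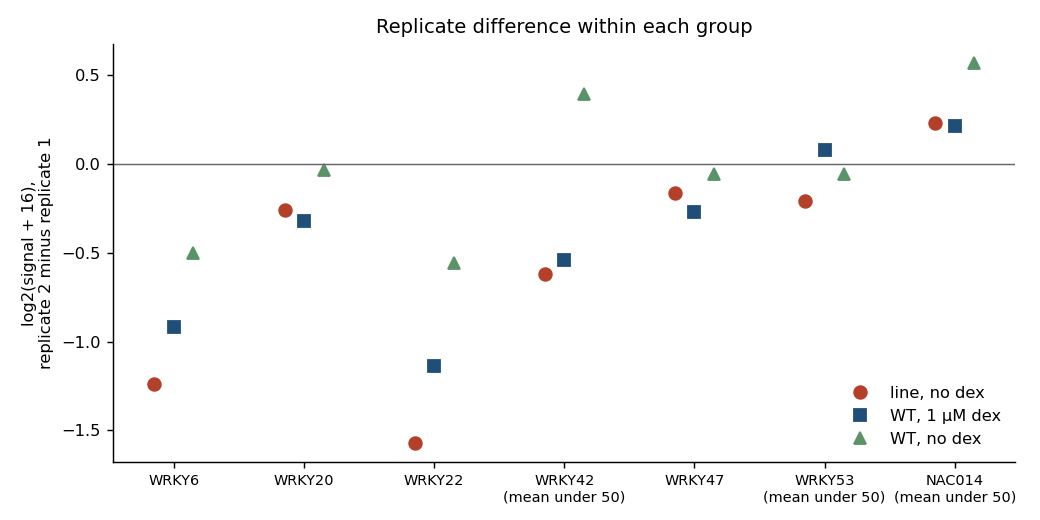
Difference in log2(signal + 16) of replicate 2 minus replicate 1 (y axis) for each gene (x axis) within the 3 groups that hold both replicates, each point being 1 pair of arrays. WRKY6, WRKY20, WRKY22 and WRKY47 lie below 0 in all 3 groups, WRKY22 down to -1.57, and NAC014 lies above 0 in all 3.

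The other tested members, WRKY20 and WRKY47, differed less by replicate. WRKY20 stood at -0.20 ± 0.12 (SE, 95% confidence interval -0.48 to 0.075, limma adjusted p 0.265) and WRKY47 at -0.16 ± 0.11 (-0.43 to 0.10, limma adjusted p 0.346). For 3 of the 4 tested members, WRKY6, WRKY22 and WRKY47, the 4 replicate 2 arrays lay wholly below the 3 replicate 1 arrays, and 19.8% of the tested probe sets did so. Of the dim genes, WRKY42 was lower in replicate 2 in the untreated line (-0.62) and treated wild type (-0.54), and higher in the untreated wild type (0.40). WRKY53 stood at -0.21, 0.078 and -0.054 in the same order. NAC014 was the one member higher in replicate 2 in all 3 groups. Its signals were 22.9 (treated line), 19.6 (untreated line), 16.2 (treated wild type) and 25.7 (untreated wild type) in replicate 2, against 14.3 (untreated line), 11.7 (treated wild type) and 12.1 (untreated wild type) in replicate 1. Without the filter its log2 difference was 0.34 ± 0.12 (SE, limma adjusted p 0.188). The confidence intervals of WRKY20 and WRKY47 still allow a modest fall in replicate 2.

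**Figure D3:**
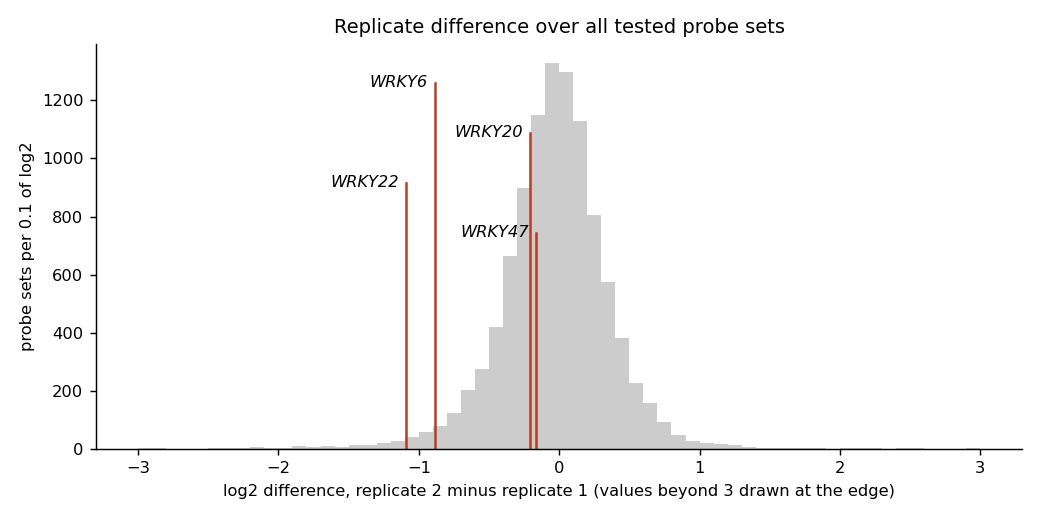
Histogram of the replicate 2 minus replicate 1 log2 difference over the 10183 tested probe sets (x axis, log2; y axis, probe sets per bin), with vertical lines at the 4 tested members. WRKY22 at -1.09 and WRKY6 at -0.89 lie in the lower tail, where 1.16% and 2.22% of the probe sets lie further down, and WRKY20 and WRKY47 lie in the bulk.

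Within replicate 2 the 3'/5' ratios moved with these signals, in part for actin and throughout for GAPDH and ubiquitin. There the untreated line had the highest actin 3'/5' ratio (1.59) and the lowest WRKY6 and WRKY22 signals, and the treated wild type came next in both respects (0.876). The untreated wild type, however, had a lower actin ratio than the treated line (0.346 against 0.388) and lower signals of both genes. GAPDH and ubiquitin ratios rose from treated line to untreated wild type, treated wild type and untreated line, the order in which both signals fell. Between the replicates the actin ratio overlapped, at 0.346 to 1.59 for replicate 2 against 0.251 to 0.528 for replicate 1. The 3'/5' ratios of GAPDH and ubiquitin did not overlap. For GAPDH the 4 replicate 2 arrays lay between 1.18 and 1.55, against 1.05 to 1.12 on the 3 arrays of replicate 1. For ubiquitin they lay between 1.48 and 2.19, against 1.25 to 1.44. These 2 ratios were thus higher on every replicate 2 array, and their part in the replicate differences was not tested. With the actin ratio as a term, the estimates of replicate 2 minus replicate 1 were below 0 for both genes. That fit leaves out the GAPDH and ubiquitin ratios, which lay apart between the replicates. RNA quality and replicate cannot be told apart by it. WRKY6 was at -0.61 ± 0.14 (SE, limma adjusted p 9.14e-05) and WRKY22 at -0.71 ± 0.14 (SE, limma adjusted p 8.83e-06). The fit had 1 residual degree of freedom, so these SEs and p-values rest largely on spread that limma shares across probe sets. Their smaller p-values are thus no stronger evidence than those of the main fit. Without the 2 arrays of highest ratio, only the untreated wild type gives a replicate difference, -0.50 for WRKY6 and -0.56 for WRKY22, with no test.

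**Figure D4:**
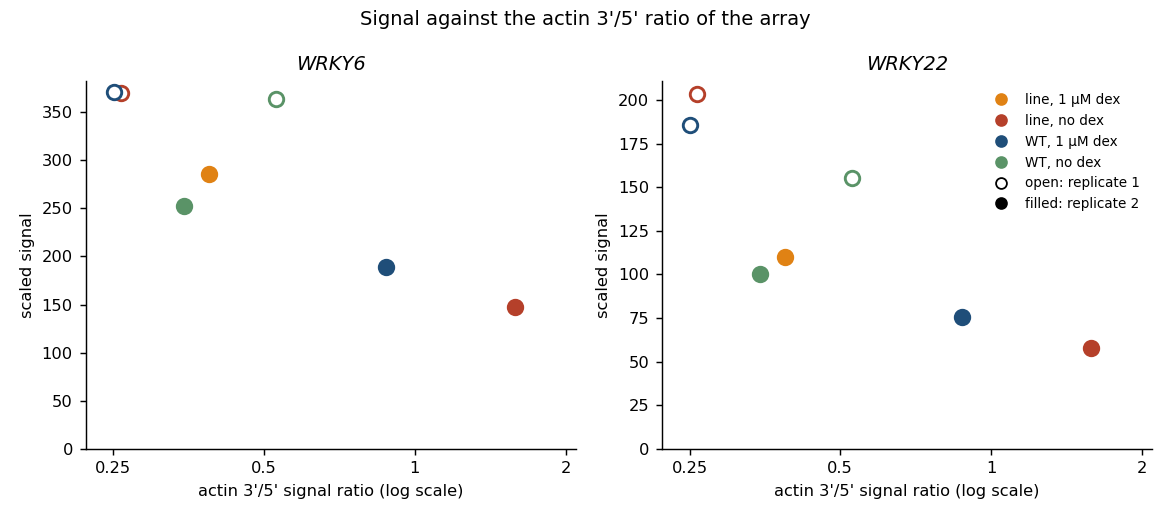
Scaled signal (linear y axis) of WRKY6 (left) and WRKY22 (right) against the actin 3'/5' ratio of the array (log x axis), with colours for the 4 groups, filled points for replicate 2 and open points for replicate 1. The 2 arrays with ratios of 0.876 and 1.59 have the lowest signals of both genes, and the open points lie above the filled points. The GAPDH and ubiquitin ratios, not plotted, were higher on all 4 filled arrays than on the 3 open ones.

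Other transcripts moved with the replicate too. The leaf marker RCA had 103.6 to 145.9 in replicate 2 and 210.7 to 234.6 in replicate 1, a log2 difference of -0.87 ± 0.12 (SE, limma adjusted p 0.00766). It was the only leaf marker of 12 that the annotation pairs with a probe set of its own. Its part in the WRKY6 and WRKY22 differences was not tested. In bulk roots, fewer cells that express a gene and less RNA per cell cannot be told apart. Pathway lists were drawn up for genes downstream of or working with WRKY, MYB, NAC and homeobox factors. They covered glucosinolate, flavonoid and lignin synthesis, secondary wall, defence, dehydration and root epidermis. Of their 94 genes, the annotation pairs 15 with a probe set of their own, and 10 were tested. In this comparison 2 of the 10 passed as lower by limma, against 9.17% of all tested probe sets, and 0 as higher. These were UGT74B1, which glucosylates the glucosinolate core (-0.83 ± 0.12, SE, adjusted p 0.00799), and the root hair expansin gene EXPA7 (-1.27 ± 0.20, SE, adjusted p 0.00941). The other root hair expansin gene, EXPA18, stood at 0.50 ± 0.15 (SE, limma adjusted p 0.0617) and the root marker PYK10 at 0.20 ± 0.076 (SE, limma adjusted p 0.108), and neither passed. The median over the 10 genes was -0.20, that over the 4 tested members -0.55 and that over all tested probe sets -0.020. Of the 11 defence genes, the list closest to WRKY function, the annotation pairs 1 with a probe set of its own. This was PDF1.2, which was dim (0.4 to 9.6) and not tested. No link between the list genes and the members was tested. PHO1 was not analysed here.

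The line did not differ from the wild type for any of the 4 tested members beyond the spread between arrays. Without a replicate block, that spread includes the replicate difference. Over both treatments the log2 difference of line minus wild type was -0.17 ± 0.35 (SE) for WRKY6, 0.12 ± 0.13 for WRKY20, -0.13 ± 0.42 for WRKY22 and -0.047 ± 0.12 for WRKY47. WRKY6 averaged 267 ± 112 in the line (SD, n = 3) and 294 ± 88.6 in the wild type (SD, n = 4), and WRKY22 averaged 124 ± 73.9 and 129 ± 50.3 in the same order. The arrays of line and wild type overlapped for all 4, whereas they lay apart for 1.14% of the tested probe sets as higher in the line and 0.874% as lower. By limma 0 of the 4 passed, each with an adjusted p of 1.00, and 0 fell under 0.05 before adjustment. Of all tested probe sets, 0% passed and 0.54% had an unadjusted p under 0.05. The 95% confidence intervals were -0.99 to 0.66 for WRKY6 and -1.11 to 0.85 for WRKY22, and -0.19 to 0.43 for WRKY20 and -0.33 to 0.24 for WRKY47. With the replicate number as a block, the differences were -0.0135 ± 0.21 (SE) for WRKY6 and 0.070 ± 0.20 for WRKY22. They were 0.16 ± 0.11 for WRKY20 and -0.012 ± 0.105 for WRKY47, and 0 of the 4 passed.

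Without dexamethasone, the difference between line and wild type was not the same in both replicates for WRKY6 and WRKY22. Within replicate 2 the untreated line was lower than the untreated wild type for WRKY6 (147.2 against 252.2, log2 -0.72) and WRKY22 (58.0 against 100.4, log2 -0.65). Within replicate 1 the untreated line was close to the wild type for WRKY6 (369.6 against 363.4, log2 0.023) and higher for WRKY22 (203.7 against 155.2, log2 0.36). The pooled differences were -0.35 ± 0.49 (SE) and -0.15 ± 0.59, WRKY20, higher in the untreated line in both replicates (0.020 in replicate 2 and 0.25 in replicate 1), stood at 0.13 ± 0.19 and WRKY47 at 0.016 ± 0.17. By limma 0 of the 4 passed, each with an adjusted p of 1.00, and 0 fell under 0.05 before adjustment, against 0% and 0.403% of all tested probe sets. With the replicate number as a block, the values stayed at -0.35 ± 0.19 (SE) for WRKY6 and -0.15 ± 0.23 for WRKY22, and neither passed. The low untreated line values of replicate 2 come from the array with the actin ratio of 1.59, and without it the differences were 0.27 for WRKY6 and 0.64 for WRKY22, the sign turned for both and neither passing. That contrast sets a replicate 1 array against wild type arrays of both replicates, and with the block the same omission gave -0.081 for WRKY6 and 0.21 for WRKY22 (limma adjusted p 1.00 each).

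Dexamethasone in the wild type, the control for effects of the steroid itself, gave no difference beyond the array spread. WRKY6 had 188.9 and 371.2 with dexamethasone and 252.2 and 363.4 without (replicates 2 and 1), and WRKY22 had 75.6 and 185.9 with it and 100.4 and 155.2 without. For both genes the treated arrays lay outside the untreated pair, 1 below and 1 above. The log2 differences were -0.18 ± 0.49 (SE) for WRKY6, 0.048 ± 0.19 for WRKY20, -0.054 ± 0.59 for WRKY22 and 0.038 ± 0.17 for WRKY47. Within replicate 2 they were -0.39 for WRKY6 and -0.35 for WRKY22, and within replicate 1 they were 0.029 and 0.24. By limma 0 of the 4 passed (adjusted p 1.00 each) and 0 fell under 0.05 before adjustment, against 0% and 0.187% of all tested probe sets. The spread in this fit includes the replicate difference. With the replicate number as a block, the values stayed at -0.18 ± 0.19 (SE) for WRKY6 and -0.054 ± 0.23 for WRKY22, and neither passed.

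Dexamethasone in the line addressed induction of the fusion protein. The only treated line array belongs to replicate 2, and within replicate 2 it was higher than the untreated line for both genes that differed by replicate. WRKY6 had 285.6 with dexamethasone and 147.2 without, 1.94 times as much, and WRKY22 had 109.8 and 58.0, 1.89 times as much. The untreated line array of replicate 1, at 369.6 and 203.7, was higher than the treated array for both genes, so the treated array lay between the untreated ones. WRKY47 had 75.4 with dexamethasone, just below both untreated arrays (77.7 and 89.1), a pattern that 24.1% of all tested probe sets shared.

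The pooled log2 differences were 0.27 ± 0.60 (SE) for WRKY6, 0.016 ± 0.23 for WRKY20, -0.019 ± 0.73 for WRKY22 and -0.12 ± 0.21 for WRKY47. By limma 0 of the 4 passed (adjusted p 1.00 each) and 0 fell under 0.05 before adjustment, against 0% and 0.53% of all tested probe sets. With the replicate number as a block, WRKY6 was at 0.71 ± 0.25 (SE, unadjusted p 0.0228, limma adjusted p 0.807) and WRKY22 at 0.53 ± 0.30 (limma adjusted p 0.807). WRKY6 was the 1 of 4 members under an unadjusted p of 0.05 in that fit, against 5.92% of all tested probe sets. The untreated line array of replicate 2 has an actin ratio of 1.59 and the treated one a ratio of 0.388, and leaving out the untreated array of replicate 2 gave, in the fit without the block, -0.35 for WRKY6 and -0.80 for WRKY22. That contrast sets replicate 2 with dexamethasone against replicate 1 without it, so it holds the replicate difference too, and with the block the same omission gave 0.35 for WRKY6 and 0.044 for WRKY22 (limma adjusted p 1.00 each).

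**Figure D5:**
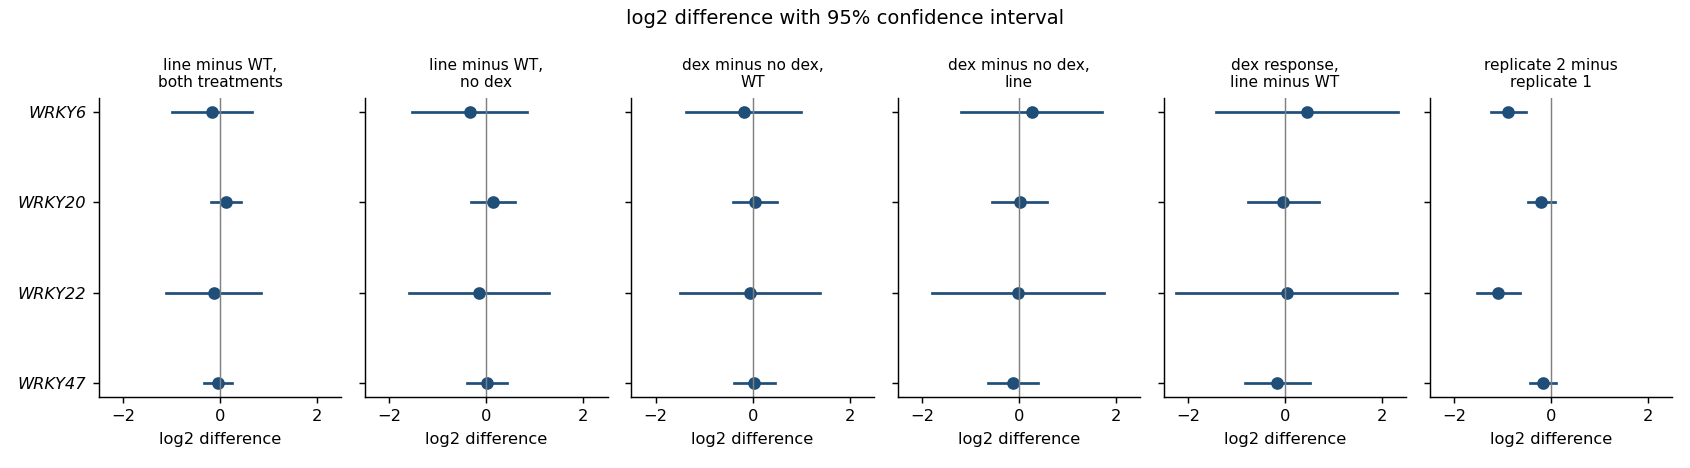
The log2 difference (x axis) of the 4 tested genes in each of the 6 comparisons, without a replicate block, with lines for the 95% confidence interval. The interval excludes 0 only in the replicate comparison, for WRKY6 and WRKY22, whose intervals are the widest in the other 5 panels. In those 5 panels the spread includes the replicate difference.

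Subtracting the wild type's dexamethasone response from the line's addresses induction of the fusion apart from effects of the steroid. The difference was 0.45 ± 0.77 (SE) for WRKY6, -0.033 ± 0.30 for WRKY20, 0.034 ± 0.94 for WRKY22 and -0.16 ± 0.27 for WRKY47. By limma 0 of the 4 passed (adjusted p 1.00 each) and 0 fell under 0.05 before adjustment, against 0% and 0.746% of all tested probe sets. Within replicate 2 alone, dexamethasone went with a higher signal in the line (log2 0.89 for WRKY6 and 0.77 for WRKY22) and with a lower one in the wild type (-0.39 and -0.35). Those 4 arrays give no test of this. The actin ratio moved in opposite ways on the same arrays, at 0.388 with dexamethasone and 1.59 without in the line, and at 0.876 with it and 0.346 without in the wild type. With the ratio as a term, the WRKY6 difference was 0.068 ± 0.44 (SE), and with ratio and block it was 0.56 ± 0.23 (SE, limma adjusted p 0.203). The difference was 0.89 ± 0.31 (SE, unadjusted p 0.0237, limma adjusted p 0.688) for WRKY6 with the replicate block, the 1 of 4 members under an unadjusted p of 0.05 against 7.08% of all tested probe sets, and it passed for this gene only in the fit with the block and without the untreated wild type of replicate 1 (1.27, limma adjusted p 0.0324). In that fit 638 of the 10183 tested probe sets passed, 1 residual degree of freedom was left, and the value is the contrast of the 4 single arrays of replicate 2. The adjusted p of WRKY6 ran from 0.0324 to 1.00 over the alternatives, and the value from -0.63 to 1.27.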

How the data were processed

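Root RNA of 7 samples was hybridised to one-colour Affymetrix ATH1 arrays. What the authors deposited is an intensity on a linear scale for each of 22810 probe sets per array, scaled to a 2% trimmed mean of 100.01 on every array. The software that summarised the probes is not given in the sources used here. Groups and replicate numbers were taken from the labels of each sample.

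After removal of 64 control probe sets, the 10183 probe sets with a mean signal of at least 50 were tested on log2(signal + 16) with limma 3.58.1 in R 4.3.3 (lmFit and eBayes with a trend). P-values were Benjamini-Hochberg adjusted over all of them, at a threshold of 0.05. Line over both treatments was fitted with line and dexamethasone as terms (4 residual degrees of freedom), the next 4 comparisons with the 4 groups (3 residual), and the replicate comparison with group and replicate (2 residual). The spread of the lone treated line array was taken from the other groups. Few arrays limit the precision of every value. The labels call the replicates biological without saying how they were raised, so the p-values measure the spread between these samples.

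The probe annotation gave 1 gene for 13513 probe sets, several for 503 and no entry for 8794. All 7 members matched a RefSeq locus by gene ID, and none has a probe set ending in _s_at or _x_at. Because there were only 7, all are named. Other genes came from the pathway and marker lists. The members, lists and tests were chosen with earlier results of these data known.

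Pairing rests on the labels' replicate numbers and on a check of the arrays: across probe sets, which are not independent of each other, the replicate differences correlated at 0.826 (untreated line with treated wild type), 0.472 (untreated line with untreated wild type) and 0.621 (between the wild type groups). A fit with the replicate number as a block was therefore made for each comparison of line or dexamethasone. The highest correlation joined the groups whose replicate 2 arrays had the highest actin 3'/5' ratios (1.59 and 0.876). The check thus cannot tell pairing from shared RNA quality, which was not tested. Further alternatives were quantile normalization, median centring, 1 or 64 added before the log, no filter or a filter at 100, no trend, the actin 3'/5' ratio as a term and leaving out each array. Leaving out the 2 arrays of highest ratio, and combining the block with left-out arrays or with the ratio, were added after seeing the data. The fits were checked on simulated data.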

Additional observations from a re-analysis of the deposited data

Results flagged for a closer look

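NAC014 moved with dexamethasone in opposite directions in the line and in the wild type. Its signal was 22.9 with dexamethasone and 19.6 without in the line of replicate 2, a log2 difference of 0.13, and in the wild type it was 16.2 against 25.7 (-0.37) in replicate 2 and 11.7 against 12.1 (-0.021) in replicate 1. The difference between line and wild type was not tested in the main fit, because the gene was below the filter. Without the filter it was 0.44 ± 0.36 (SE, limma adjusted p 1.00), and all signals were dim. The cause was not tested.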

How the results depend on the processing

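Values are log2 differences or, where named so, counts. Of the 4 tested members, 0 passed in line over both treatments, in the line when untreated, and for dexamethasone in the wild type or in the line, in the main fit and in all 26, 25, 25 and 23 alternatives. For the difference of the responses, 0 passed except 1, WRKY6, in a blocked fit with 1 array left out, and leaving out an array gave 0 to 1. For the replicates, 2 passed in the main fit and in 13 of 16 alternatives, 0 without the filter, and 1 to 2 with an array left out. With the replicate block the count of members was 0 in all 5 comparisons of line or dexamethasone, so the block changed no call of a member.

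The counts over all tested probe sets moved more. For line over both treatments the main count of 0 became 1 with median centring, 1 added, the filter at 100, the block, the actin ratio or without the 2 arrays of highest ratio, 3 with block and ratio, 6 with the block and without those 2 arrays, and 0 to 2 with an array left out. For the untreated line the main count of 0 became 1 without those 2 arrays, 175 with block and ratio, and 0 to 105 with an array left out. Block and ratio together gave 37 for dexamethasone in the wild type, 94 in the line and 236 for the difference of the responses, where the main counts were 0 and leaving out an array gave 0 to 2, 0 to 169 and 0 to 638. The replicate comparison called 1703 in the main fit, 423 without the filter, 2622 with the ratio, and 301 to 3344 with an array left out. The cause was not tested. The combined fits had first been dropped for brevity after their values were seen, and were then put back.

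None of the members' values that changed sign had passed the test in the main fit. With the block, WRKY22 was at 0.070 for line over both treatments and 0.53 for dexamethasone in the line, and WRKY20 at 0.069 for the difference of the responses. With the ratio, WRKY22 was at 0.18 for the untreated line, 0.021 for dexamethasone in the wild type and -0.44 for the difference of the responses, and for dexamethasone in the line WRKY6 was at -0.053 and WRKY20 at -0.070. With block and ratio, WRKY22 was at 0.079, 0.028 and 0.12 for line over both treatments, the untreated line and dexamethasone in the line. Without the 2 arrays of highest ratio, WRKY6 was at 0.0019, 0.27, 0.28, -0.35 and -0.63 in the 5 comparisons in the order of the report, WRKY22 at 0.072, 0.64, 0.52 and -1.32 in those other than dexamethasone in the line, and WRKY20 at -0.11 for dexamethasone in the line. With the block as well, WRKY6 was at 0.067 and WRKY22 at 0.18 for line over both treatments. For dexamethasone in the line, WRKY20 was at -0.012 after quantile normalization and WRKY22 at 0.012 with 1 added. For the difference of the responses, WRKY22 was at -0.026 after quantile normalization, -0.0016 after median centring and -0.033 with 64 added.

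With an array left out, with or without the block, line over both treatments ran from -0.43 to 0.29 for WRKY6, -0.52 to 0.41 for WRKY22 and -0.10 to 0.032 for WRKY47. The untreated line ran from -0.97 to 0.27 for WRKY6, -0.93 to 0.64 for WRKY22 and -0.067 to 0.099 for WRKY47. Dexamethasone in the wild type ran from -0.64 to 0.28 for WRKY6, -0.11 to 0.21 for WRKY20, -0.62 to 0.52 for WRKY22 and -0.096 to 0.17 for WRKY47. Dexamethasone in the line ran from -0.35 to 0.89 for WRKY6, -0.11 to 0.16 for WRKY20 and -0.80 to 0.77 for WRKY22. The difference of the responses ran from -0.17 to 1.27 for WRKY6, -0.19 to 0.24 for WRKY20, -0.75 to 1.11 for WRKY22 and -0.29 to 0.032 for WRKY47. The dim genes WRKY42, WRKY53 and NAC014 could be fitted only without the filter.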

Other observations

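Relatives of these families whose annotation symbol lacks the required form were looked up by synonym after the annotation had been seen, and no test was made. ZAP1, also called WRKY1, had 86.6 to 114.2 over the 7 arrays, and its replicates overlapped. PHV, a class III homeodomain gene also called ATHB9 and known for setting the upper side of lateral organs, had 59.4 to 67.9 in replicate 2 and 55.8 to 62.7 in replicate 1. MYBC1, a MYB-related gene, had 168.5 to 235.9 in replicate 2 and 146.5 to 163.9 in replicate 1, without overlap and higher in replicate 2. Replicates without overlap were common, since 19.8% of the tested probe sets lay apart as lower in replicate 2 alone. The share that lay apart as higher, the direction of MYBC1, is not given here. All 3 were at 50 or more on all 7 arrays.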
